A study of Mus musculus with 8 samples.

Results

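The 10 genes described here carry out or control antigen presentation on major histocompatibility complex (MHC) class II molecules: H2-Aa, H2-Ab1, H2-Eb1, Cd74, H2-DMa, H2-DMb1, H2-DMb2, H2-Oa, Ifi30 and Ciita. They were chosen by symbol, whatever their values, and all 10 were found among the 24924 genes analysed. Microglia and brain T cells were the source of the total RNA sequenced, both sorted by surface markers from the brains of C57BL/6 mice aged 20 to 22 months, for which no modified allele is named. Mice of the treated groups received interleukin-5 (IL-5), a cytokine of eosinophils and B cells, at 2 µg per day for 2 days, and those of the other groups phosphate-buffered saline (PBS). Each cell type had 2 libraries from PBS mice and 2 from IL-5 mice, which makes 4 groups and 8 libraries. The labels do not say whether libraries came from separate mice or from pools, so p-values measure the spread between these libraries, which may be technical.

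Class II molecules present peptides from material that a cell has taken up, and CD4+ T cells read them. H2-Aa and H2-Ab1 encode the α and β chains of the I-A molecule, and H2-Eb1 the β chain of I-E. C57BL/6 mice lack a working I-E α chain, so that I-E is not displayed in this strain, and the α chain gene, listed as the pseudogene H2-Ea-ps, had 0 counts in all 8 libraries. Cd74 encodes the invariant chain, which fills the groove and guides new class II molecules to endosomes. There H2-DM (H2-DMa with H2-DMb1 or H2-DMb2) exchanges the remnant of the invariant chain for peptide, H2-DO (H2-Oa with H2-Ob) inhibits H2-DM, and Ifi30, a thiol reductase, opens disulfide bonds of the antigen. Ciita is the transcriptional coactivator of the class II genes. Resident microglia are known for low class II in young brain and for a rise of it in age and inflammation, whereas mouse T cells are known for making little or none.

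Of the 10 genes, 7 lie in the MHC on chromosome 17 of GRCm38: H2-Oa (34092340 to 34095234), H2-DMa (34119541 to 34139101), H2-DMb2 (34143307 to 34151555), H2-DMb1 (34153072 to 34160230), H2-Ab1 (34257689 to 34269419), H2-Aa (34282744 to 34287823, minus strand) and H2-Eb1 (34305867 to 34316674). The other 3, Cd74, Ifi30 and Ciita, lie on other chromosomes. Promoters of class II genes are known for an X box, bound by RFX, followed by a Y box, an inverted CCAAT motif bound by NF-Y, and Ciita acts through the proteins assembled there. RefSeq promoter windows of 300 bases on GRCm38.p6 (250 bases before the start site and 50 after it) were at hand for 7 of the 10 genes. The stretches below show how the shared arrangement looks in an I-A chain, an I-E chain and an H2-DM chain. They are written 5′ to 3′ along the gene, with capitals on the letters AAC within the X box and on the Y box core GATTGG. The H2-Aa stretch is at chr17:34287857-34287922 on the minus strand, that of H2-Eb1 at chr17:34305757-34305822 and that of H2-DMb2 at chr17:34145108-34145173, both on the plus strand.
H2-Aa: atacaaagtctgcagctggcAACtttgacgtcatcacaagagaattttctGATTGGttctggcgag
H2-Eb1: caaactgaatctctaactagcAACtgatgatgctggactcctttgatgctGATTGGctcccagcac
H2-DMb2: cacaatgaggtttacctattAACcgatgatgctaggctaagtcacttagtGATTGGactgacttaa

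GATTGG starts 49 bases before the start site in H2-Aa, 60 in H2-Eb1 and 91 in H2-DMb2, and 27, 26 and 27 bases lie between the capitals. The pattern AAC, then 24 to 27 bases of any kind, then GATTGG was found on either strand in the promoters of 5 of the 7 genes with a window: H2-Aa, H2-Eb1, H2-DMb1, H2-DMb2 and H2-Oa. It contains GATTGG by construction and was written after these promoters had been read, and it occurs in 300 of all 32851 promoter windows (0.913%). GATTGG alone, on either strand, occurs in 16.1% of windows and in 6 of the 7 genes, the added gene being H2-DMa. Ifi30 had neither set of letters in its window, which says nothing about the factors that bind there. The stretches of H2-DMb1 and H2-DMb2, 2 neighbouring copies, were identical at 57 of 66 positions (86.4%).

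The libraries held 23536908 to 30423828 gene counts, and levels are given per 1000000 of them (CPM), a scale on which 1 count equals 0.0329 to 0.0425, and a gene without a count could still be at 0.0986 to 0.127 CPM (3 counts, counting error only). Of the marker lists, 16 of 16 microglia markers were lower and 17 of 17 T cell markers higher in T cells than in microglia by edgeR. Aif1, a microglial marker, was at 1012 to 1145 CPM in microglia and at most 0.311 CPM in T cells, and Cd3e, a T cell receptor subunit, at most 9.68 CPM in microglia and 449 to 765 CPM in T cells. Genes of other cells were present in both sorts: markers of the choroid plexus summed to 36108 to 64263 CPM in microglia and 59604 to 116962 CPM in T cells, and neutrophil markers to 13586 to 17601 CPM in microglia and 0.602 to 26.96 CPM in T cells. Microglia IL-5 replicate 1 stood apart, with 25.5% of its column outside annotated genes (15.2% to 19.8% in the other libraries) and a microglia marker sum of 18042 CPM (27096 to 35225 in the other 3). No batch or date is labelled, so a batch cannot be told apart from the groups.

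Among the 9 genes with lower fitted values in T cells, the I-A chains and H2-DM had the largest fitted differences. In T cells, 7 of the 10 were lower than in microglia and none higher: H2-Aa, H2-Ab1, H2-Eb1, Cd74, H2-DMa, H2-DMb1 and Ifi30. Among all 15397 genes tested in this comparison, 11.4% were called lower and 8.05% higher (19.4% together). The median log2 fold change, T cells over microglia, was -4.15 over the 10 genes, all of which passed the filter on low counts, against 0.17 over all genes tested. By DESeq2 9 were lower and 0 higher (16.8% and 14.2% of all genes, 30.9% together), and at an unadjusted edgeR p under 0.05 the count was also 9, all of them lower (33.9% of all genes in either direction). On the TMM scale of the fit the 4 T cell libraries all lay below the 4 microglia libraries for 7 genes, against 15.6% of all genes tested (14% the other way). In plain CPM, the scale of the levels given next, Cd74 and H2-Oa were not among these and the 2 I-A and 3 H2-DM chains were. In bulk samples fewer cells of a type and less RNA per cell cannot be told apart.

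**Figure D1:**
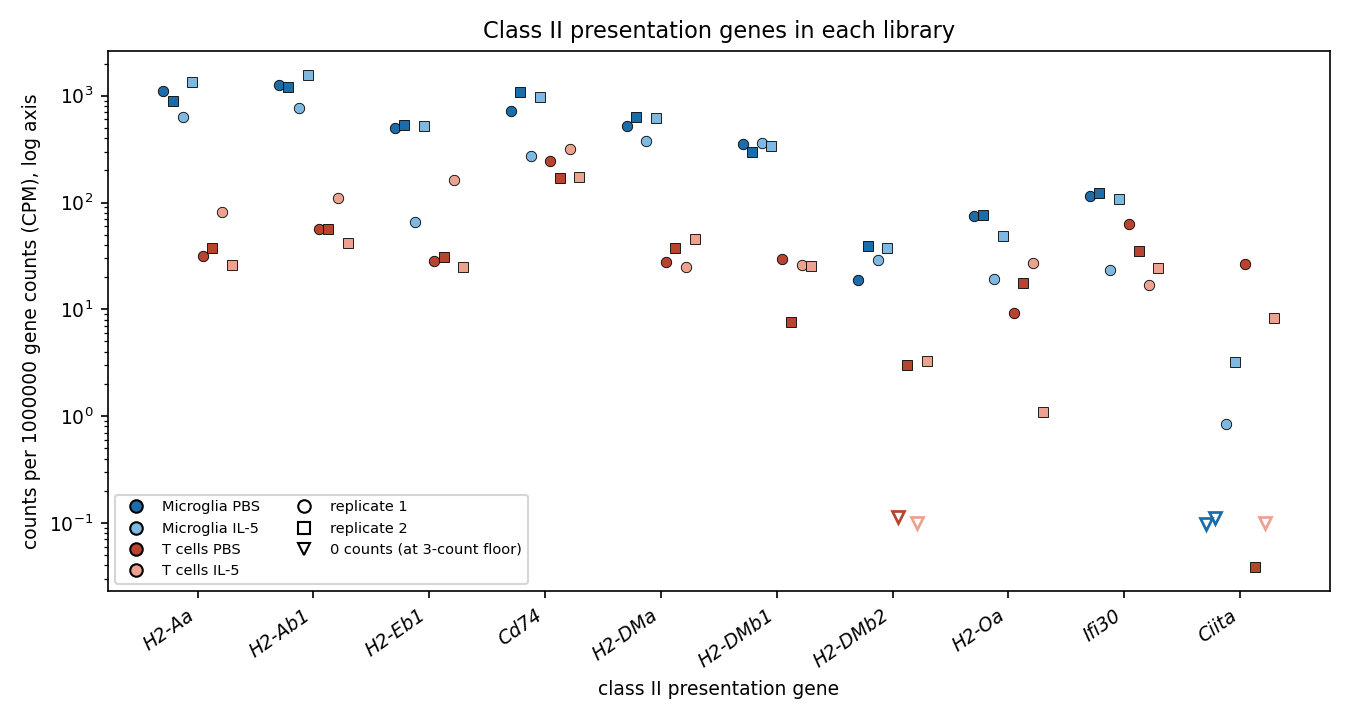
Level of each class II presentation gene in each of the 8 libraries, in CPM on a log axis. Blue points are microglia and red points T cells, darker after PBS and paler after IL-5, circles replicate 1 and squares replicate 2, and open triangles mark libraries at 0 counts, drawn at the level of 3 counts. The microglia points of H2-Aa, H2-Ab1, H2-DMa, H2-DMb1 and H2-DMb2 sit above every T cell point of the same gene, while the cell types overlap in H2-Eb1, Cd74, H2-Oa, Ifi30 and Ciita.

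H2-Aa, the I-A α chain, was at 1114, 894, 626 and 1333 CPM in microglia and at 31.5, 37.6, 81.3 and 25.9 CPM in T cells, where PBS replicates 1 and 2 come before IL-5 replicates 1 and 2, an order kept throughout. Every microglia library was above every T cell library. The mean was 992 ± 302 CPM in microglia and 44.1 ± 25.3 CPM in T cells (SD, n = 4 each), 22.5-fold apart in plain CPM. The fitted log2 fold change was larger, at -5.26 (SE 0.44, edgeR adjusted p = 9.61e-05). Fitted values are on the TMM scale, with factors of 0.638 to 0.819 in microglia and 1.27 to 1.32 in T cells. Its partner chain H2-Ab1 was at 1270, 1210, 762 and 1551 CPM in microglia and at 56.7, 56.9, 111 and 42.0 CPM in T cells. The groups again lay apart, with the highest T cell level and the lowest microglia level both in IL-5 replicate 1. The log2 fold change of H2-Ab1 was -4.92 (SE 0.39, edgeR adjusted p = 7.69e-05).

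H2-Eb1, whose product has no partner in this strain, was at 495, 532, 65.8 and 523 CPM in microglia and at 28.1, 31.1, 162 and 24.99 CPM in T cells. A single library of each cell type departed from the other 3, microglia IL-5 replicate 1 downwards and T cells IL-5 replicate 1 upwards, so that the ranges of the cell types overlapped. The log2 fold change was -3.58 (SE 0.72, edgeR adjusted p = 0.0104). That call was lost without microglia PBS replicate 1 (adjusted p = 0.0598), microglia PBS replicate 2 (0.0587), T cells PBS replicate 1 (0.0907) or T cells PBS replicate 2 (0.0850), with adjusted p from 1.304e-08 to 0.201 over all alternatives. Without both IL-5 replicate 1 libraries, an alternative chosen after the data were seen, the log2 fold change was -4.996 (SE 0.21, adjusted p = 0.000114).

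Cd74, the invariant chain (chromosome 18, 60803848 to 60812652), was at 721, 1086, 273 and 973 CPM in microglia and at 243, 169, 318 and 173 CPM in T cells. The lowest microglia library, IL-5 replicate 1, lay below the highest T cell library, IL-5 replicate 1, so the ranges overlapped in CPM. Its mean was 763 ± 361 CPM in microglia and 226 ± 70.2 CPM in T cells (SD, n = 4 each), 3.38-fold apart in plain CPM. The fitted log2 fold change, on the TMM scale, was -2.46 (SE 0.39, edgeR adjusted p = 0.00265). The I-A chains differed by more, and that gap is tested as a ratio further on.

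The 3 H2-DM chains had low levels in T cells as well. H2-DMa was at 522, 633, 378 and 621 CPM in microglia and at 27.9, 37.3, 25.01 and 45.7 CPM in T cells, and H2-DMb1 at 355, 296, 360 and 337 CPM in microglia and at 29.6, 7.65, 25.7 and 25.3 CPM in T cells. Neither overlapped between the cell types, and H2-DMb1 was at 337 ± 29.4 CPM in microglia (SD, n = 4). The log2 fold change was -4.74 for H2-DMa (SE 0.31, edgeR adjusted p = 3.22e-05) and -4.73 for H2-DMb1 (SE 0.44, adjusted p = 0.000178). H2-DMb2, the second β chain, was at 19.0, 39.4, 28.8 and 37.4 CPM in microglia and at 0, 3.03, 0 and 3.28 CPM in T cells, with no overlap. Its log2 fold change was -5.07 (SE 1.66, edgeR adjusted p = 0.0654), which did not pass, and which passed without T cells PBS replicate 2 (-9.07, adjusted p = 0.0352) or T cells IL-5 replicate 2 (-9.11, 0.0257), fits in which 2 of 3 T cell libraries are at 0, with adjusted p from 0.000795 to 0.252 over all alternatives. H2-DMb1 and H2-DMb2 share 254 windows of 75 bases, the read length, or 15.8% of those in H2-DMb1, and 16.2% of those in H2-DMb2 are shared with H2-DMb1 or further genes, so the split of reads between them is uncertain.

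H2-Oa, the α chain of the inhibitor H2-DO, was at 75.1, 76.7, 19.4 and 48.3 CPM in microglia and at 9.20, 17.6, 27.3 and 1.09 CPM in T cells. T cells IL-5 replicate 1 was above microglia IL-5 replicate 1, so the ranges overlapped in CPM. The log2 fold change was -2.60 (SE 0.82, edgeR adjusted p = 0.0542), which did not pass. It passed without T cells IL-5 replicate 1 (-4.47, adjusted p = 0.00194) or T cells IL-5 replicate 2 (0.0278), with adjusted p from 0.00194 to 0.339 over all alternatives. Its partner H2-Ob, from the wider list, was at 54.8 to 129 CPM in microglia and 0.719 to 20.6 CPM in T cells, and it passed with a log2 fold change of -3.32 (SE 0.83, edgeR adjusted p = 0.0223).

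Ifi30, the thiol reductase (chromosome 8, 70762774 to 70766663, minus strand), was at 115, 122, 23.5 and 108 CPM in microglia and at 62.4, 35.1, 17.01 and 24.6 CPM in T cells. Microglia IL-5 replicate 1 lay within the T cell range and the other 3 microglia libraries above it. Its log2 fold change was -2.19 (SE 0.44, edgeR adjusted p = 0.00868). That call was lost with scaling by library size alone (-1.47, adjusted p = 0.0628) and in PBS libraries alone (-1.98, 0.0939), with adjusted p from 6.07e-06 to 0.0939 over all alternatives. Ciita, the coactivator (chromosome 16, 10480059 to 10528418), had 0, 0, 20 and 87 counts in microglia (0, 0, 0.850 and 3.20 CPM) and 703, 1, 0 and 221 counts in T cells (26.6, 0.0389, 0 and 8.32 CPM). The T cell libraries thus ran from no count to the highest level of the gene, and the replicates of each T cell group lay far apart. Its log2 fold change was 5.71 (SE 2.77, edgeR adjusted p = 0.186), which did not pass. Exons of Ciita overlap those of Dexi on the other strand over 3.45% of their bases, those of H2-Oa overlap BC051537 over 22.8%, those of H2-DMa overlap Brd2 over 10.4% and those of Ifi30 overlap 6330537M06Rik over 8.66%. The strand setting of the counting is not given in the sources used here, so reads from such overlaps cannot be told apart.

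Other cells that carry class II were sought through their markers. Border macrophage markers summed to 411, 324, 438 and 397 CPM in microglia and to 22.9, 18.6, 40.4 and 45.8 CPM in T cells, dendritic cell markers to 248, 286, 160 and 266 CPM and 289, 181, 283 and 314 CPM, and B cell markers to 186, 225, 340 and 373 CPM and 304, 176, 393 and 269 CPM. The border macrophage sum differed between the cell types without overlap, and the dendritic cell and B cell sums overlapped. Most of the dendritic cell sum in T cells was Cd24a (78.3 to 177 CPM) and Ccr7 (57.2 to 124 CPM). Flt3, Clec9a, Cd209a, Batf3 and Ccl22 were at most 0.640 CPM there. In their highest T cell library, Zbtb46 was at 31.5, Xcr1 at 25.8, Itgae at 22.3, Itgax at 14.1 and Fscn1 at 7.64 CPM. Of the 12 dendritic cell markers, edgeR called 4 lower in T cells and 0 higher, against 11.4% and 8.05% of all genes. DESeq2 called 7 lower and 2 higher (16.8% and 14.2% of all genes). Among T cells, the library with the highest H2-Aa, H2-Ab1, H2-Eb1, Cd74 and H2-Oa, IL-5 replicate 1, also had the highest B cell sum, with Ms4a1 at 51.6 CPM. There 12 of 12 B cell markers reached 1 CPM, against 8 to 10 in the other T cell libraries, and 4 of 12 dendritic cell markers, against 6. Microglia markers summed to 1130 to 1502 CPM in T cells, most of it Selplg (736 to 1098 CPM) and Sparc (286 to 439 CPM), with P2ry12 at most 2.21 CPM and Tmem119 at most 1.52 CPM. In IL-5 replicate 1, 7 of 16 microglia markers had counts, against 11 to 16 in the other T cell libraries. P2ry12, P2ry13, Tmem119, Siglech, Fcrls, Olfml3, Trem2, Aif1 and Slc2a5 were at 0 there. Gpr34 (44.9 CPM, 2.11 to 29.6 in the other T cell libraries), Csf1r (27.96, 0 to 1.24), Cx3cr1 (18.6, 0.909 to 14.4) and Sparc were highest there. The part of these cells in the class II levels was not tested.

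**Figure D2:**
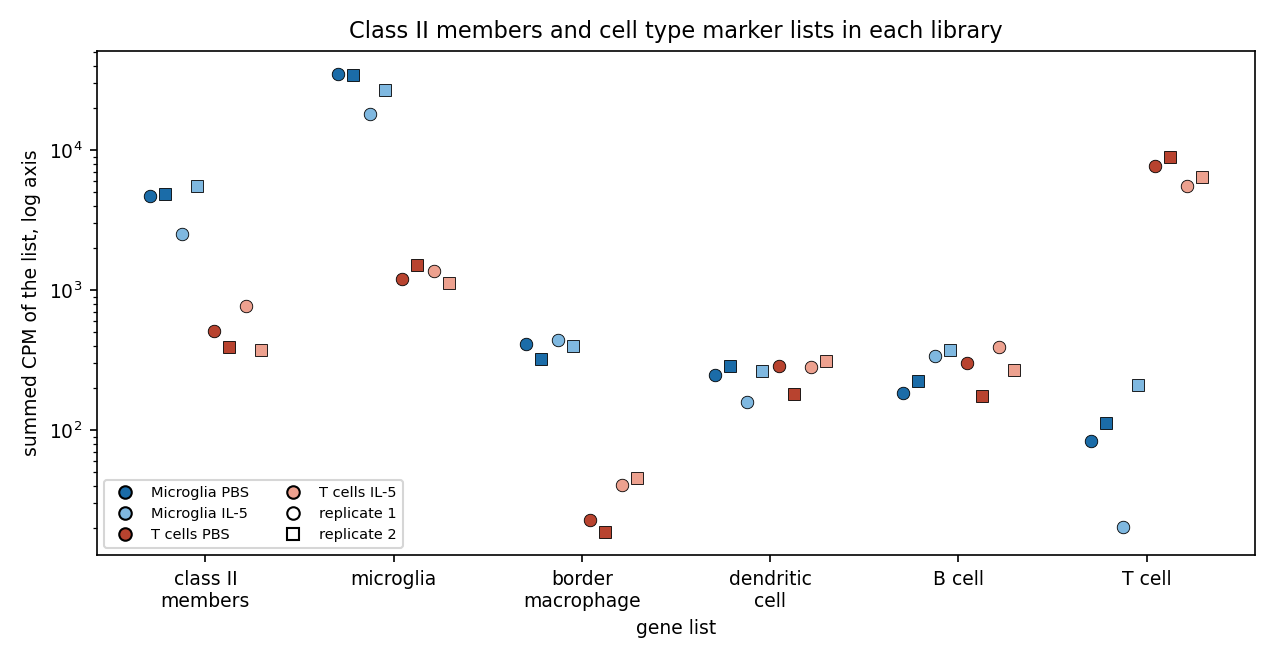
Summed CPM, on a log axis, of the 10 class II genes and of 5 marker lists in each of the 8 libraries, in the colours used for single genes. The class II sum is 2538 to 5534 CPM in microglia and 374 to 768 CPM in T cells, and the B cell and dendritic cell sums of the cell types overlap.

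Microglia after IL-5 were compared with microglia after PBS to see whether the cytokine changed these genes. None of the 10 passed the threshold of 0.05 by edgeR (adjusted p 0.964 to 1.00), nor did any of the 13764 genes tested (0%). At an unadjusted p under 0.05 there were 617 genes (4.48%), 1 of them among the 10, and DESeq2 called 67 genes (0.487%), 0 of them among the 10. The median log2 fold change, IL-5 over PBS, was -0.04 over the 10 genes and -0.02 over all genes tested. IL-5 replicate 1 had the lowest TMM factor of the 8 libraries (0.638), and shares over all genes were not counted for single libraries. From the levels above, in plain CPM, it was below both PBS libraries in H2-Aa, H2-Ab1, H2-Eb1, Cd74, H2-DMa, H2-Oa and Ifi30. It was above both in H2-DMb1 and Ciita, and IL-5 replicate 2 was above both in H2-Aa, H2-Ab1 and Ciita. The 2 IL-5 libraries therefore stood on either side of the PBS libraries for the I-A chains, whose log2 fold changes were 0.06 (SE 0.44) for H2-Aa and 0.0012 (SE 0.43) for H2-Ab1, and with scaling by library size alone both turned, to -0.036 and -0.10. For H2-Eb1 it was -0.79 (SE 0.78), for Cd74 -0.48 (SE 0.57), for H2-DMa -0.09 (SE 0.39), for H2-DMb1 0.27 (SE 0.40) and for H2-DMb2 0.33 (SE 0.58).

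H2-Oa and Ifi30 were lower in both IL-5 libraries than in both PBS libraries, with log2 fold changes of -1.08 (SE 0.50) and -0.80 (SE 0.62). Ciita was higher without overlap, with 0 counts in both PBS libraries against 20 and 87 after IL-5. The mean after IL-5, 2.02 CPM, was at least 19.3-fold above the mean floor of the PBS libraries (3 counts, 0.105 CPM). IL-5 replicate 1 by itself was at only 0.850 CPM. The unadjusted edgeR p was 0.0387, but Ciita passed the filter on low counts only through its IL-5 libraries. Neither this p nor the lack of overlap is therefore support for a change. Groups of 2 lay apart in this way in 17.4% of all genes upwards and 21.1% downwards, and in 1 and 2 of the 10 genes.

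Without microglia IL-5 replicate 2, which leaves replicate 1 as the sole IL-5 library and assumes that it varies like the PBS pair, H2-Eb1 (-2.63, SE 0.24, edgeR adjusted p = 0.00854), Ifi30 (-1.99, SE 0.35, 0.0216) and Cd74 (-1.39, SE 0.29, 0.0345) were called lower, in a fit that called 4.85% of all genes lower and 3.57% higher. Over all alternatives the adjusted p of these 3 genes reached 1.00. Without IL-5 replicate 1 the log2 fold changes were 0.0050 for H2-Eb1 (SE 0.20), 0.09 for Cd74 (SE 0.26) and -0.15 for Ifi30 (SE 0.29), and none was called. Set against the microglia markers of the same library, the sum of the 10 genes was 133, 141, 141 and 204 per 1000 marker counts, so that IL-5 replicate 1 no longer stood out in the sum. H2-Eb1 (14.0, 15.3, 3.65 and 19.3 per 1000 marker counts), Cd74 (20.5, 31.3, 15.1 and 35.9), H2-Oa (2.13, 2.21, 1.08 and 1.78) and Ifi30 (3.26, 3.52, 1.305 and 4.002) were still lowest there, whereas H2-DMb1 (10.1, 8.51, 20.0 and 12.4) was highest there.

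**Figure D3:**
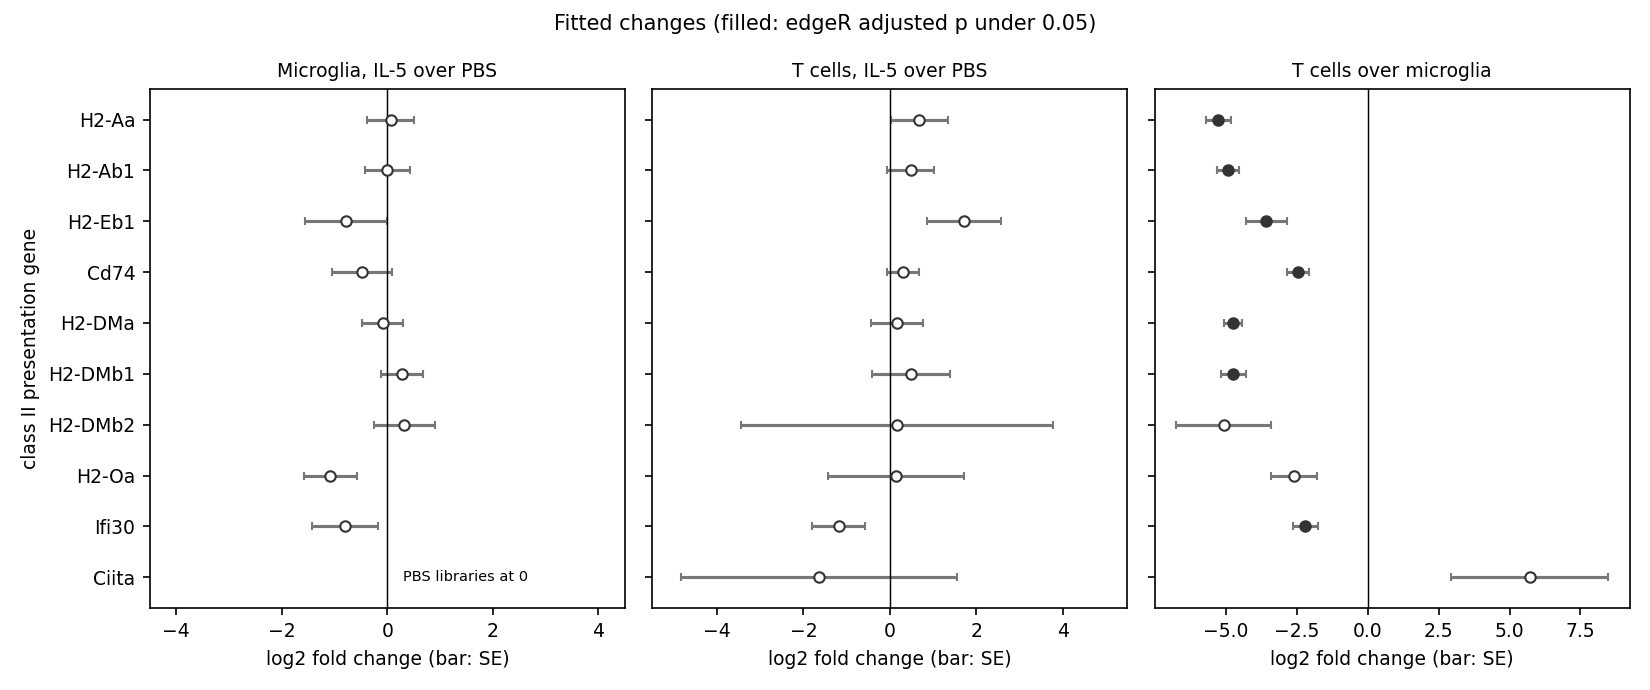
Fitted log2 fold change of each class II gene (point) with its SE (bar) for IL-5 over PBS in microglia, IL-5 over PBS in T cells, and T cells over microglia. Filled points passed an edgeR adjusted p of 0.05, which 7 genes did in the third panel and none in the others. Ciita is not drawn in the microglia panel, because both PBS libraries were at 0.

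T cells after IL-5 were compared with T cells after PBS in the same way. None of the 10 genes passed (edgeR adjusted p 1.00 for each), and neither did any of the 13897 genes tested (0%). At an unadjusted p under 0.05 there were 600 genes (4.32%) and 0 of the 10, and DESeq2 called 658 genes (4.73%) and 0 of the 10. The median log2 fold change was 0.23 over the 10 genes and -0.01 over all. H2-Eb1 had the largest fitted value among the chains, 1.72 (SE 0.86), from a single high library. H2-Aa was at 0.69 (SE 0.66), H2-Ab1 at 0.48 (SE 0.55), Cd74 at 0.30 (SE 0.37), H2-DMa at 0.16 (SE 0.60), H2-DMb1 at 0.50 (SE 0.91) and H2-Oa at 0.14 (SE 1.58).

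For H2-Aa, H2-Ab1, H2-Eb1, Cd74 and H2-Oa, IL-5 replicate 1 was the highest T cell library, and IL-5 replicate 2 the lowest for the first 3 and for H2-Oa. Without IL-5 replicate 1 the 5 log2 fold changes turned negative: -0.38, -0.41, -0.21, -0.23 and -3.58 in that order, with edgeR adjusted p of 1.00 for each and no lower than 0.245 for any of them over all alternatives. Besides the B cell and microglia genes named above as highest, that library had Cd40, a receptor of antigen-presenting cells, at 36.2 CPM (0.795 to 9.21 CPM in the other 3). Other genes of the wider list went either way. Cd80 was also highest there (33.0 CPM, 0.640 to 18.1 in the other 3). Cd83 (4.35 CPM, 13.8 to 21.9), Ctss (78.7, 111 to 180), Icosl (4.86) and Spi1 (0) were lowest there, and Cd86 (22.0) lay between. Of the dendritic cell list Zbtb46 was at 31.5 CPM there (0 to 7.38 in the other 3), but Flt3, Clec9a, Xcr1, Cd209a, Batf3, Itgax and Ccl22 were at 0 and the sum of the list was not the highest. H2-DMa, by contrast, was lowest there, at 25.01 CPM. Ifi30 was the one gene of the 10 whose T cell groups lay apart, with both IL-5 libraries below both PBS libraries (log2 fold change -1.19, SE 0.61), as in 17.3% of all genes downwards (18.1% upwards). Ciita (-1.65, SE 3.19) and H2-DMb2 (0.16, SE 3.61) were too uneven between replicates for a direction.

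**Figure D4:**
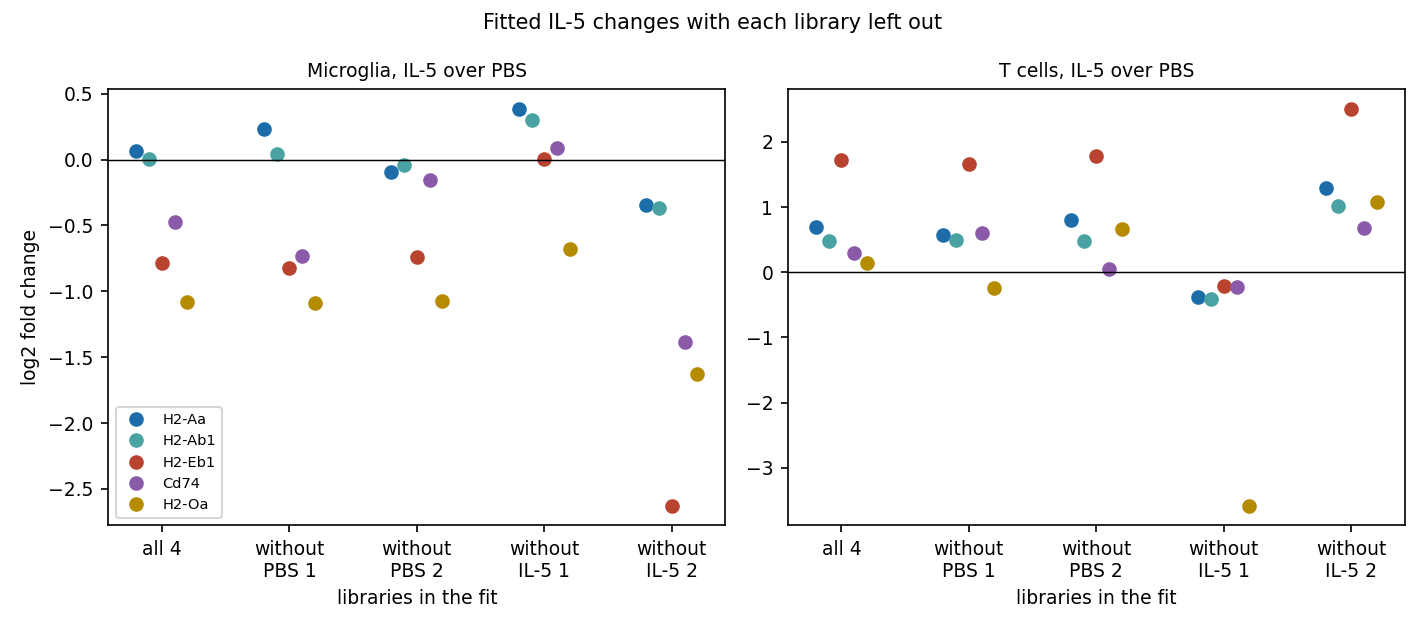
Log2 fold change, IL-5 over PBS, of H2-Aa, H2-Ab1, H2-Eb1, Cd74 and H2-Oa with all 4 libraries of a cell type and with each left out. In T cells all 5 values drop below 0 when IL-5 replicate 1 is left out; in microglia H2-Eb1 moves from -2.63 without IL-5 replicate 2 to 0.0050 without IL-5 replicate 1.

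The difference between the IL-5 responses, T cells minus microglia, was fitted as an interaction over all 8 libraries. No gene of the 10 passed, and none of the 15397 tested (0%), with 798 genes at an unadjusted p under 0.05 (5.18%) and 187 called by DESeq2 (1.21%), 0 of the 10 in either count. H2-Eb1 had a difference of 2.48 on the log2 scale (SE 1.32, edgeR adjusted p = 0.904), Cd74 one of 0.75 (SE 0.74), H2-Aa 0.60 (SE 0.73), H2-Ab1 0.45 (SE 0.66) and Ifi30 -0.42 (SE 0.85).

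To compare genes with each other, levels were divided by length (CPM per kilobase of merged exons). In T cells Cd74 came first at 134 ± 41.8 CPM per kilobase (SD, n = 4), and its lowest library, at 101, lay above the highest of the next gene, Ifi30, at 63.6. Behind it the ranges of neighbours in the order overlapped: Ifi30 at 35.4, H2-Eb1 at 31.7, H2-Ab1 at 26.0, H2-DMb1 at 13.1, H2-Aa at 11.6, H2-DMa at 9.86, H2-Oa at 9.82, Ciita at 0.917 and H2-DMb2 at 0.902 CPM per kilobase. In microglia H2-Ab1 (467) and Cd74 (454) led, followed by H2-Aa (261), H2-Eb1 (208), H2-DMb1 (200), H2-DMa (156), Ifi30 (94.1), H2-Oa (39.0) and H2-DMb2 (17.8), with overlapping ranges between neighbours, and by Ciita (0.106), which lay apart from H2-DMb2. With the median length of basic GENCODE transcripts H2-Ab1 and H2-Aa led in microglia (1141 and 1015 CPM per kilobase) ahead of Cd74 (567), while Cd74 still led in T cells (168).

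Ratios within a library do not depend on its depth. Their size depends on the gene lengths used, here merged exons, but the fold difference between the cell types does not. The invariant chain per I-A β chain, Cd74 to H2-Ab1 per length, was 4.37 to 6.56 in T cells and 0.548 to 1.37 in microglia, a 6.01-fold difference of geometric means with no overlap. Ifi30 to H2-Ab1 (1.299 in T cells, 0.175 in microglia) and H2-Eb1 to H2-Ab1 (0.919 and 0.351) also lay apart, and the I-A chains to each other did so by less (H2-Aa to H2-Ab1, 0.431 and 0.556). For these 4 of the 8 ratios tested the two-sided exact permutation p was 0.0286, the smallest that 4 libraries against 4 allow. After adjustment over the 8 it was 0.0571, which did not pass. With only 4 ratios at the smallest p none could pass, whatever the size of the differences. H2-DMa to H2-Ab1, H2-DMb1 to H2-DMa, H2-Oa to H2-DMa and H2-Ob to H2-Oa overlapped between the cell types (exact p 0.257 to 0.914). H2-DMb2 to H2-DMb1 was 0.0514 to 0.128 in microglia and was not tested, since H2-DMb2 had T cell libraries at 0.

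**Figure D5:**
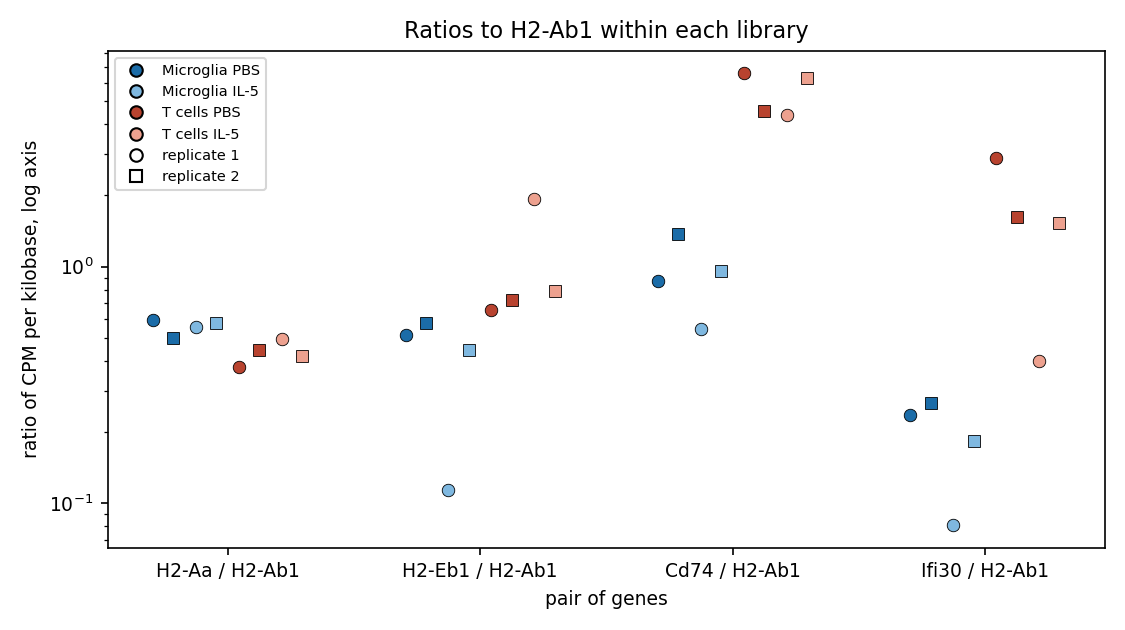
Ratio of CPM per kilobase of H2-Aa, H2-Eb1, Cd74 and Ifi30 to H2-Ab1 in each of the 8 libraries, on a log axis. Cd74 to H2-Ab1 is 4.37 to 6.56 in the T cell libraries and 0.548 to 1.37 in the microglia libraries.

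The wider class II list held 22 genes, of which 21 were tested between the cell types. In T cells 9 were lower and 1 was higher than in microglia (edgeR), against 11.4% and 8.05% of all genes, and the median log2 fold change was -1.06, against 0.17 over all genes. The proteases of the endosome were all lower: Ctss, which trims the invariant chain, at 4982 to 9322 CPM in microglia and 78.7 to 180 CPM in T cells (-6.65 on the log2 scale, SE 0.29), Lgmn at -4.76 (SE 0.35) and Ctsl at -2.71 (SE 0.24). So were the myeloid factors Spi1 (-8.90, SE 1.57) and Irf8 (-4.67, SE 0.39), the costimulator Cd86 (-2.32, SE 0.39), Cd83, which keeps class II on the surface (-4.99, SE 0.50), H2-Ob and Tgfb1 (-1.71, SE 0.43). The RFX, NF-Y and CREB genes that encode the proteins of the X and Y boxes (Rfx5, Rfxank, Rfxap, Nfya, Nfyb, Nfyc and Creb1) did not pass, with log2 fold changes from -0.15 to 1.35. Irf1, an interferon-induced activator of Ciita, was higher in T cells (2.11, SE 0.31), at 178 to 328 CPM against 27.6 to 51.5 CPM.

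Interferon γ is the main known inducer of Ciita outside professional presenting cells, and 9 genes of its pathway, Irf1 again among them, were counted in the same way. In T cells 6 were higher and 1 was lower (edgeR), against 8.05% and 11.4% of all genes, with a median log2 fold change of 1.92. Ifng itself was at 153 to 206 CPM in T cells and at 0 to 6.61 CPM in microglia (log2 fold change 5.34, SE 1.499) and the kinase Jak1 was at 3.26 (SE 0.45). The receptor chain Ifngr2 was lower in T cells, at 1.63 to 19.0 CPM against 89.2 to 191 CPM (-5.08, SE 0.41), and Ifngr1 did not pass (-0.67, SE 0.29). After IL-5 none of either list passed by edgeR in microglia or in T cells, as none of all genes did. In microglia 1 gene of the wider list and 0 of the interferon γ list had an unadjusted p under 0.05 (4.48% of all genes) and DESeq2 called 0 of either (0.487%). In T cells the counts were 1 and 2 by unadjusted p (4.32% of all genes) and 1 and 1 by DESeq2 (4.73%).

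The genes whose profile over the 8 libraries was most like the mean log2 CPM of H2-Aa, H2-Ab1, H2-Eb1 and Cd74 were Lat2 (Pearson r = 0.994), Ppcdc (0.992), Selenop (0.992), Comtd1 (0.992) and Fcgrt (0.992), out of 11459 candidates. These libraries share cell type and depth, and the values are descriptions without a p. Of the other class II genes H2-DMa (0.945) and H2-DMb1 (0.934) were closest, followed by H2-Oa (0.871), Ifi30 (0.810) and H2-DMb2 (0.765), and Ciita ran the other way (-0.33). With the mean of each cell type subtracted, H2-Oa (0.71) still moved with the 4 genes, whereas Ifi30 (0.21), H2-DMb1 (0.01), H2-DMa (-0.29), Ciita (-0.49) and H2-DMb2 (-0.52) did less or not at all. The genes most alike were then Tubb2a (0.994), Rap2c (0.985), Cavin3 (0.982), Ppcdc (0.975) and Afap1l1 (0.974), each lowest among microglia and highest among T cells in IL-5 replicate 1.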

How the data were processed

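The values are raw counts that the authors deposited, unscaled whole numbers for each gene in each library, from single-end reads of 75 bases. Tools named by the submitters' processing notes are STAR 2.5.3a, Cufflinks 2.0, DESeq2 1.1, FastQC 1.0.0 and bcl2fastq 2.20.0.422, with builds mm10 and GRCm38; the counting tool and strand setting are not given in the sources used here. Of 24953 entries, 2 summaries (reads outside genes, 15.2% to 25.5%, and ambiguous reads, 1.39% to 1.77% of a column) and 27 genes with unreadable cells were set aside. Among the latter were 26 whose names had become dates in March or September, so the genes of those name types are not analysed here.

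Counts were tested with the quasi-likelihood test of edgeR 4.0.16 (R 4.3.3), with TMM scaling, robust dispersion, filterByExpr at a minimum count of 10 and Benjamini-Hochberg adjustment over all genes tested. Tests were two-sided with a threshold of 0.05. Each IL-5 comparison used the 4 libraries of its cell type. The difference of responses and the cell type comparison (mean of the PBS and IL-5 contrasts) used all 8. A standard error is the size of the log2 fold change over the square root of F. Ratios were tested by exact permutation (scipy 1.17.1), lengths and coordinates came from GENCODE M21, and promoters came from RefSeq. Scripts were tested on simulated data.

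Alternatives were DESeq2 1.42.0, RLE and library-size scaling, no filter, a filter at 5 CPM in 2 libraries, a replicate block, a joint fit of all 8 libraries, the PBS or IL-5 libraries alone, and leaving out each library. The fit without both IL-5 replicate 1 libraries was chosen after seeing the data. The 10 genes and all lists were chosen with earlier results of these data known. All 10 were named whatever their values, any gene of the wider list could be named, and those most alike were the 5 with the highest correlation, at a mean of at least 5 CPM (log2 CPM, prior count 2). Genes named from the marker, interferon γ, B cell and dendritic cell lists were chosen after their values were seen.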

Additional observations from a re-analysis of the deposited data

Results flagged for a closer look

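In each of the 10 genes, the 4 libraries of a cell type, both treatments together, were checked for a single library far from the other 3. The gap to the nearest library was divided by the whole range and set against Dixon's 95% critical value for 4 libraries. Of 20 sets 3 passed, where chance gives about 1 in 20. H2-Eb1 was at 65.8 CPM in microglia IL-5 replicate 1 and at 495 to 532 CPM in the other microglia libraries (gap over range 0.919). H2-Eb1 was also at 162 CPM in T cells IL-5 replicate 1 and at 24.99 to 31.1 CPM in the other T cell libraries (0.956). Ifi30 was at 23.5 CPM in microglia IL-5 replicate 1 and at 108 to 122 CPM in the others (0.858).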

How the results depend on the processing

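Between the cell types H2-Aa, H2-Ab1, Cd74, H2-DMa and H2-DMb1 were called lower in T cells in all 17 alternative fits, and 6 to 9 of the 10 genes were called lower. Scaling by library size alone moved the median of all genes from 0.17 to 0.91 and turned 1240 genes higher and 1753 lower into 2790 and 868; the median of the 10 genes was then -3.42, the call of Ifi30 was lost (-1.47), and in microglia after IL-5 H2-Aa (-0.036) and H2-Ab1 (-0.10) changed sign. H2-Eb1 was not called without a filter (adjusted p = 0.0712) or in IL-5 libraries alone (-2.34, 0.201), nor Ifi30 in PBS libraries alone (-1.98, 0.0939).

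Genes called higher in T cells numbered 2181 by DESeq2. In PBS libraries alone 396 were higher and 709 lower, in IL-5 libraries alone 383 and 883, and with both IL-5 replicate 1 libraries left out 854 and 1375. For IL-5 in microglia DESeq2 called 18 higher and 49 lower. For IL-5 in T cells it called 403 and 255, and edgeR 2 higher without a filter and 2 higher in the joint fit. For the difference of responses DESeq2 called 132 and 55, and edgeR without a filter 27 and 4.

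Over all genes tested, libraries with the same replicate number did not deviate together (correlations of deviations -0.004 to 0.019). With 2 libraries per group this cannot exclude shared mice or a shared preparation, and the labels name no pairing. With a replicate block 1090 genes were called higher and 1571 lower between cell types and 8 of the 10 lower, H2-DMb2 being added (-7.06). After IL-5 the block called 0 genes in either cell type and turned H2-Ab1 in microglia (-0.035) and H2-Oa in T cells (-1.15).

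With 1 library left out at a time, genes called after IL-5 in microglia ranged from 0 to 532 higher and 0 to 723 lower, and class II genes lower from 0 to 3. In T cells they ranged from 0 to 1 higher, in the difference from 0 to 178 higher and 0 to 54 lower, and between cell types from 750 to 1724 higher and 1233 to 1910 lower. Log2 fold changes that turned in microglia ranged from -0.34 to 0.38 (H2-Aa), -0.37 to 0.30 (H2-Ab1), -2.63 to 0.0050 (H2-Eb1), -1.39 to 0.087 (Cd74), -0.27 to 0.082 (H2-DMa) and -0.11 to 0.94 (H2-DMb2). In T cells the ranges were -0.38 to 1.29 (H2-Aa), -0.41 to 1.02 (H2-Ab1), -0.21 to 2.51 (H2-Eb1), -0.23 to 0.68 (Cd74), -0.33 to 0.52 (H2-DMa), -0.18 to 1.80 (H2-DMb1), -8.35 to 8.51 (H2-DMb2), -3.58 to 1.08 (H2-Oa) and -11.50 to 6.63 (Ciita). For the difference of responses they were -0.49 to 1.22 (H2-Aa), -0.45 to 1.02 (H2-Ab1), -0.25 to 0.56 (H2-DMa), -0.46 to 1.48 (H2-DMb1), -8.31 to 7.75 (H2-DMb2), -2.55 to 2.15 (H2-Oa) and -1.05 to 0.75 (Ifi30). The log2 ratio, T cells minus microglia, ran from -0.12 to 0.63 for H2-DMa to H2-Ab1, -0.38 to 0.41 for H2-DMb1 to H2-DMa and -1.92 to 0.42 for H2-Ob to H2-Oa. The cause of these changes was not tested.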
